A study of Mus musculus with 3 samples.

Results

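Chemokine genes of the vomeronasal organ (VNO) were taken by name alone: every feature whose symbol begins with Ccl, Cxcl, Xcl or Cx3cl followed by a digit. The rule used no measured value and found 44 of the 32285 features, with 38 distinct symbols. The VNO detects pheromones at the base of the nasal septum, and single cells of whole dissociated VNOs of male mice on a mixed C57 BL/6J 129P2/OlaHsd background were profiled from frozen suspensions with 10x Genomics chemistry. All 3 groups carried OMPCre in the heterozygous state, that is, Cre recombinase under control of Omp, the olfactory marker protein gene of maturing sensory neurons. The P10 control (postnatal day 10) carried OMPCre alone, and the P10 mutant and the mutant aged 3 months (3mo) carried OMPCre with R26AP2e, a Rosa26 allele from which Cre-expressing cells make the transcription factor AP-2ε (Tfap2e). There was 1 library per group, and the number of animals pooled in a library was not given in the sources used here. Differences between libraries therefore had no replicate check and were not tested. At P10 a difference of genotype and one of library cannot be told apart, and in mutants the same holds for age. The comparisons address where in the organ each chemokine was made and how its level differed with genotype at P10 and with age in mutants.

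Chemokines are small secreted proteins that attract cells by binding G protein-coupled receptors, and their names follow the spacing of conserved cysteines (CC, CXC, C and CX3C). Inflammatory chemokines are induced by microbial products, cytokines, tissue damage or dissociation, largely through NF-κB and interferon-regulated factors, and recruit neutrophils, monocytes and T cells. Homeostatic chemokines are made constitutively by stromal, endothelial and epithelial cells and position lymphocytes, dendritic cells and progenitors.

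Values for the 3 libraries are given below in the order P10 control, P10 mutant and 3-month mutant. Levels are given as CPM, the unique molecular identifiers (UMIs) of a gene pooled over all kept cells of a class and scaled to 1000000 UMIs of the same cells. Kept cells had 200 to 9000 genes and at most 10% mitochondrial UMIs, and numbered 4795, 3956 and 6960 of 8202, 8864 and 10293 barcodes, with median UMIs of 10236, 10766 and 5010. Brackets give 95% intervals (exact Poisson for levels, conditional exact binomial for ratios), which cover counting error only, neither variation between cells nor between animals. Cell classes were rebuilt from marker genes, so a name such as neutrophil stands for neutrophil-like cells, and between 4 and 9 kept barcodes were shared by any pair of libraries. Tfap2e checked the genotype labels, with 19.8, 534 and 200 CPM in mature vomeronasal sensory neurons (VSNs). Outside neurons it was also found in both mutant libraries, at 0.308, 36.2 and 10.7 CPM in fibroblasts, 0, 22.8 and 16.4 CPM in endothelial cells, 0, 22.3 and 28.6 CPM in neutrophils and 1.69, 11.3 and 7.71 CPM in macrophages. Omp had at most 6 UMIs in each of these classes of a library. The part of Tfap2e outside neurons in the differences below was not tested.

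Of the 44 features, 34 had at least 10 UMIs and 33 had at least 50 UMIs in kept cells, and these 33 are described by name. Cxcl15 had 18 UMIs in all. The remaining 10 features had no UMI in any barcode: Ccl26, Ccl27b, all features named Ccl21b or Ccl21c, and extra copies of Ccl19, Ccl21a and Ccl27a on unplaced scaffolds. Copies of Ccl21, Ccl27 and Ccl19 are nearly identical, so which copy gave the reads counted as Ccl21a, Ccl27a and Ccl19 is uncertain. Together the chemokines had 354205 UMIs, which was 0.204% of all kept UMIs, and 5 genes (Cxcl2, Ccl4, Cxcl5, Cxcl1 and Ccl3) held 52.5% of them. By position 12 of the 33 were on chromosome 11 and 8 on chromosome 5, in the known tandem clusters. Cxcl5, Cxcl3, Cxcl1 and Cxcl2 lay within 146579 bp of chromosome 5, Ccl2, Ccl7, Ccl11, Ccl12 and Ccl8 within 81229 bp of chromosome 11, and Ccl5, Ccl9, Ccl6, Ccl3 and Ccl4 within 138906 bp of the same chromosome (GRCm38).

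Neutrophils devoted the largest share of their UMIs to chemokines among the named classes at P10, with a summed level of 20789, 14609 and 12181 CPM. Macrophages had 6591, 10477 and 10419 CPM. Lymphatic endothelial cells had 3314, 4608 and 15491 CPM, most of it Ccl21a (2386, 3512 and 14815 CPM), and at 3 months they were above neutrophils. Neurons were among the lower classes, with 368, 335 and 464 CPM in mature VSNs and 250, 358 and 235 CPM in immature VSNs. Macrophages, 4.59%, 6.47% and 14.1% of kept cells, held 13.1%, 21.3% and 33% of all chemokine UMIs. Neutrophils, 5.11%, 9.63% and 6.70% of kept cells, held 16.1%, 16.3% and 9.05%. A small epithelial cluster that could not be named, cluster 35, was led by Lcn2, Ltf and Reg3g, which encode antimicrobial proteins. It was 1.52%, 1.19% and 0.517% of kept cells but held 18.7%, 8.31% and 3.87% of the chemokine UMIs, at a summed level of 9202, 8386 and 6178 CPM.

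**Figure D1:**
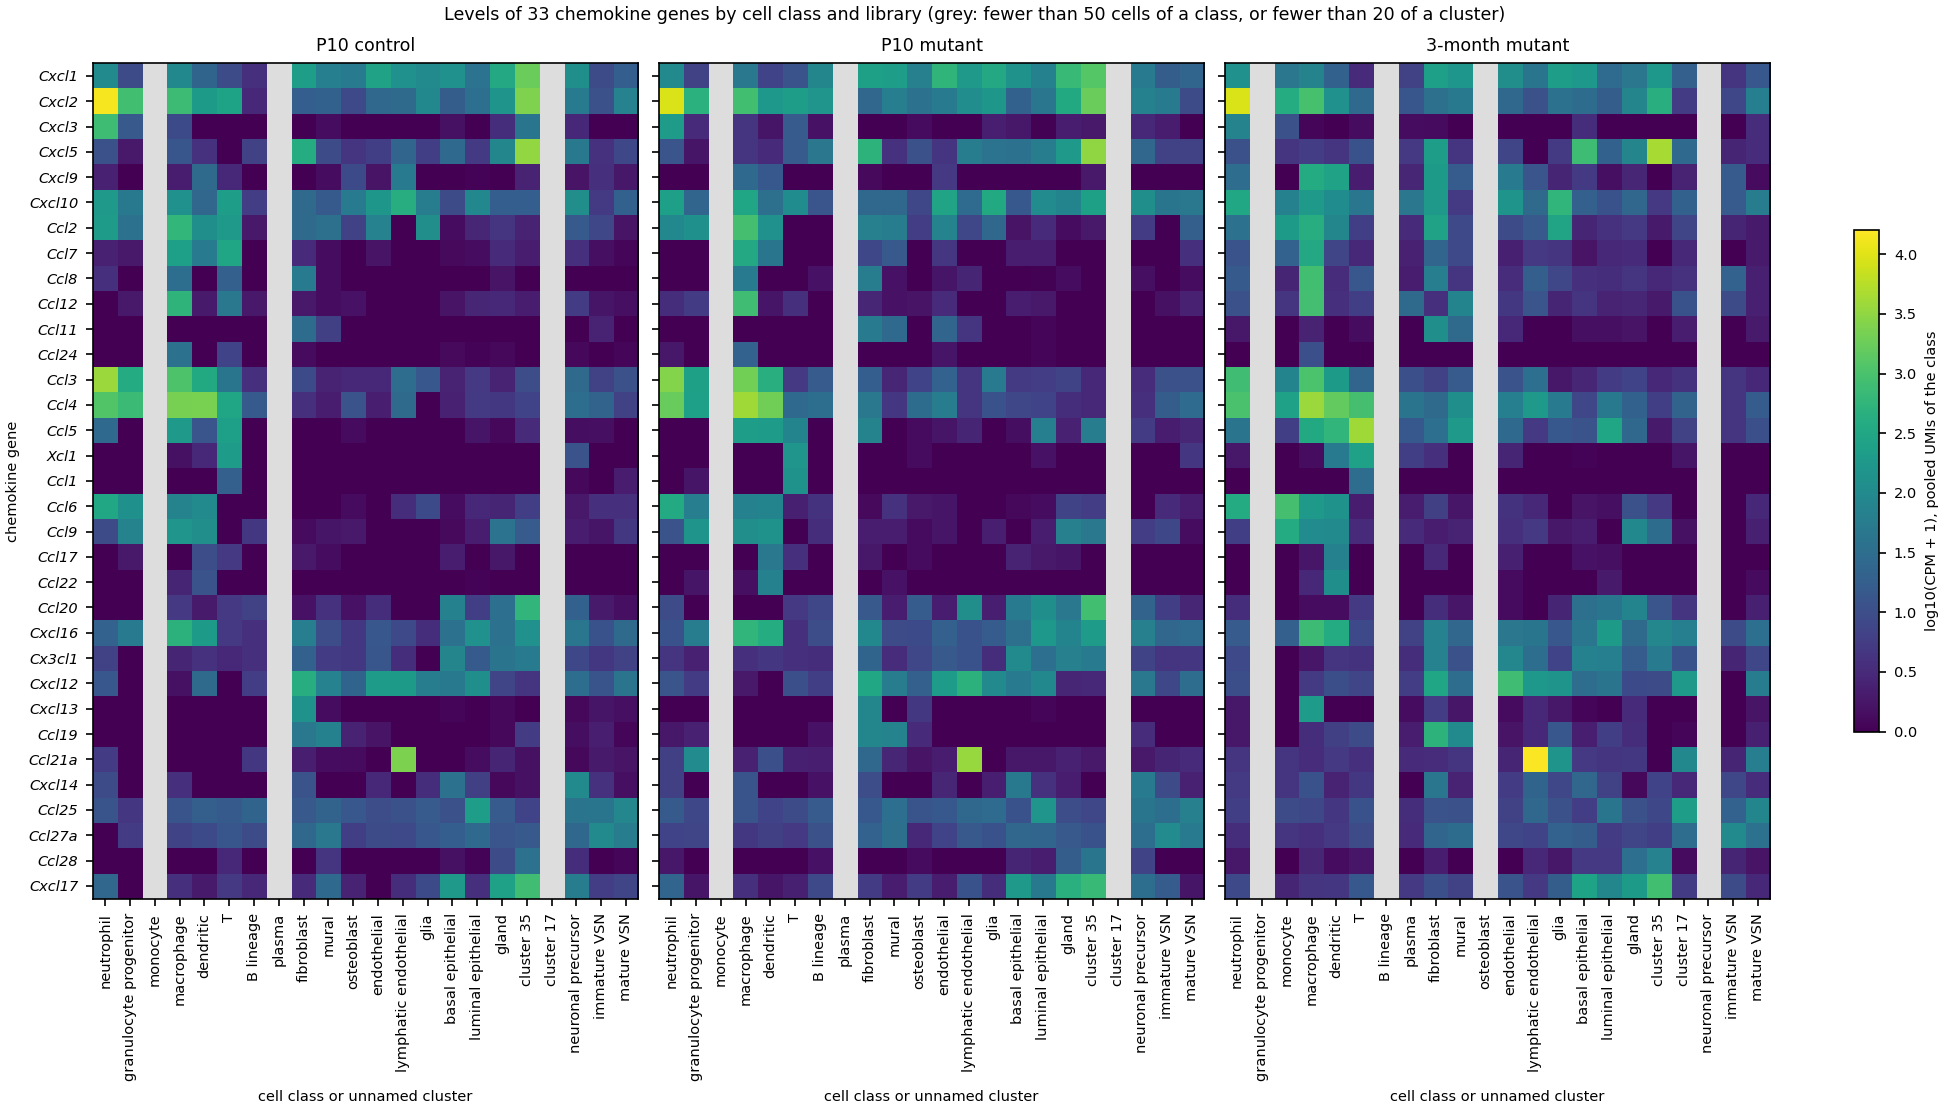
Levels of the 33 chemokine genes with at least 50 UMIs (rows) in cell classes and in the unnamed clusters 35 and 17 (columns) of the 3 libraries, as log10(CPM + 1) of pooled UMIs. The brightest cell is Cxcl2 in neutrophils at P10 (14121 and 9257 CPM) and Ccl21a in lymphatic endothelial cells at 3 months (14815 CPM). Cxcl2 in neutrophils is at 9281 CPM at 3 months. At P10 Ccl21a in lymphatic endothelial cells (2386 and 3512 CPM) is below Ccl3 in control neutrophils (3764 CPM) and Ccl4 in P10 mutant macrophages (4035 CPM), respectively.

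The class with the highest level was ranked among named classes with at least 50 cells in a library. It was the same in the 3 libraries for 14 of the 33 genes, and the same in both P10 libraries for 24. The 14 were Cxcl2 and Cxcl3 (neutrophils), Ccl2, Ccl12, Ccl24 and Cxcl16 (macrophages), Ccl17 and Ccl22 (dendritic cells), Xcl1 and Ccl1 (T cells), Ccl11 (fibroblasts), Ccl21a (lymphatic endothelial cells), Ccl28 (gland cells) and Ccl27a (immature VSNs). The interval of the ratio to the second class lay above 1 for 30, 26 and 32 of the 33 genes. Macrophages were the class with the highest level for 5, 8 and 10 genes, more than any other class in both mutant libraries. In the P10 control 4 genes peaked in T cells, but for Ccl7 all 150 UMIs there came from 1 cell.

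The ligands of CXCR2, the main chemokine receptor of neutrophils, divided by class. Cxcl2 had more UMIs than any other chemokine and stood at 14121 (13843 to 14403), 9257 (9084 to 9433) and 9281 CPM (9108 to 9455) in neutrophils. The second class was at least 9.67-fold lower in every library (16.9-fold, 11.1-fold and 9.67-fold). At least 1 Cxcl2 UMI was found in 84.5%, 89.5% and 84.5% of neutrophils, and in 79.8%, 83.2% and 79.9% after thinning each cell to 1000 UMIs, with 11, 12 and 30 shallower cells left out. Mature VSNs, which should lack the gene, had 8.86%, 9.84% and 7.48%, or 3.38%, 0.995% and 1.94% after thinning, at median depths of 11775, 23725 and 3234 UMIs against 2540, 2700 and 2413 in neutrophils. Cxcl3, a close relative of Cxcl2, was likewise highest in neutrophils but stood lower in each library in turn, at 785, 204 and 74.1 CPM. Cxcl1 was low in neutrophils (98.0, 102 and 132 CPM) and was highest in gland cells at P10, with 343 and 706 CPM. At 3 months Cxcl1 stood at 45.2 CPM in gland cells and was highest in fibroblasts (237 CPM), where glia at 228 CPM did not differ beyond counting error. Gland cells of the 3 libraries had median depths of 3879, 15794 and 766 UMIs. Cxcl5 was highest in fibroblasts at P10 (400 and 522 CPM) and in basal epithelial cells at 3 months (795 CPM), where it had stood at 26.6 and 35.5 CPM at P10. At 3 months 7622 of the 8093 Cxcl5 UMIs of basal epithelial cells lay in cluster 7, which held 508 cells of that library and at most 6 of each P10 library. In cluster 35 all of Cxcl1 (1718, 1241 and 174 CPM), Cxcl2 (2459, 1753 and 448 CPM) and Cxcl5 (3290, 3170 and 4405 CPM) were abundant, and every named class was lower for Cxcl5. Cxcl15, also called lungkine, had 8, 5 and 5 UMIs in all kept cells.

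**Figure D2:**
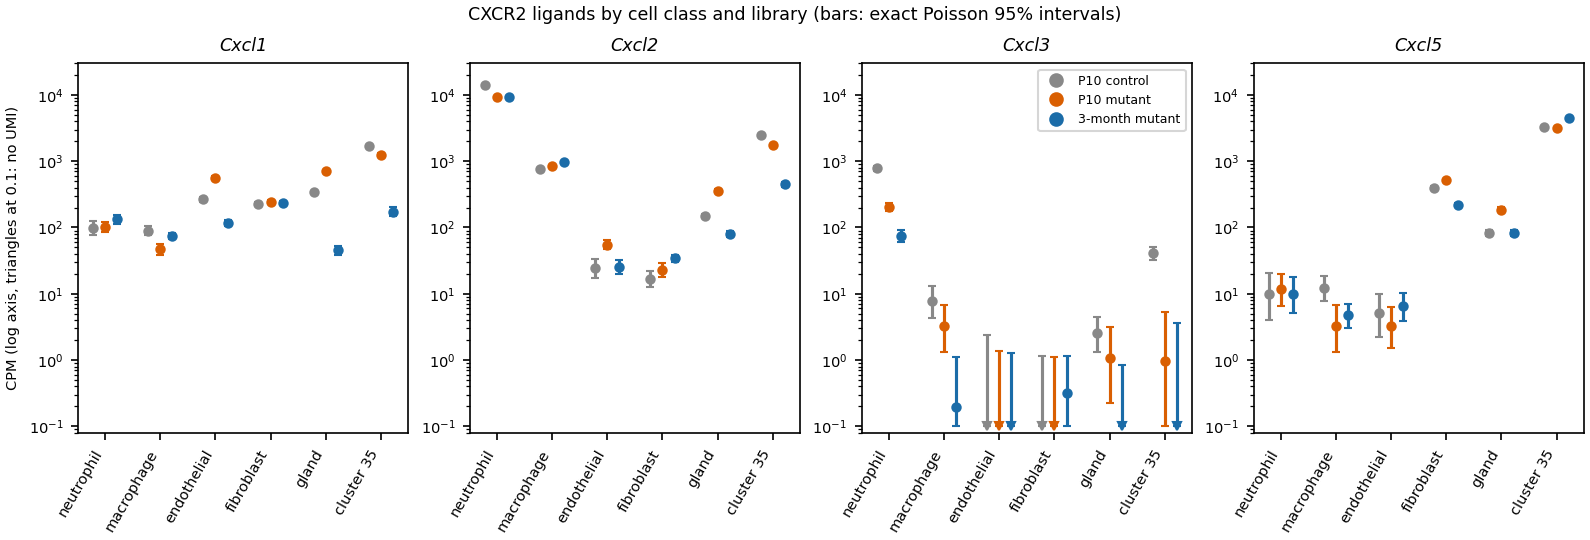
CPM on a log axis of Cxcl1, Cxcl2, Cxcl3 and Cxcl5 in 5 cell classes and cluster 35, with exact Poisson 95% intervals; triangles mark no UMI. Cxcl2 and Cxcl3 were highest in neutrophils among the named classes, and Cxcl5 was near 10 CPM there (10.1, 12 and 10.1 CPM).

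The promoters of 3 of these neighbors on chromosome 5 (Cxcl1, Cxcl2 and Cxcl3) are shown because they hold the same letters while Cxcl1 was highest in other classes than Cxcl2 and Cxcl3, and Cxcl10, also on chromosome 5, is shown for comparison. No promoter of Cxcl5 was in the table. Promoters from RefSeq (GRCm38.p6) were found for 24 of the 33 genes. The 170 bases before the RefSeq start of Cxcl1 (chr5:90891075-90891244, plus strand), Cxcl2 (chr5:90903729-90903898, plus strand), Cxcl3 (chr5:90785931-90786100, plus strand) and Cxcl10 (chr5:92348890-92349059, minus strand) are printed 5′ to 3′ on the gene's own strand, with matches to the NF-κB consensus on either strand in capitals.
Cxcl1: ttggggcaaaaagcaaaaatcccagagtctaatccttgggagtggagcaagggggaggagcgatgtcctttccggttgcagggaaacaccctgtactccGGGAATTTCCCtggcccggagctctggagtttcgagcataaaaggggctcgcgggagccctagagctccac
Cxcl2: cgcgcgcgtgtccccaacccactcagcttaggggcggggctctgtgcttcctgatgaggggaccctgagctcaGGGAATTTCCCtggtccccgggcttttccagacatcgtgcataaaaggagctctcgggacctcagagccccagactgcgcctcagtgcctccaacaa
Cxcl3: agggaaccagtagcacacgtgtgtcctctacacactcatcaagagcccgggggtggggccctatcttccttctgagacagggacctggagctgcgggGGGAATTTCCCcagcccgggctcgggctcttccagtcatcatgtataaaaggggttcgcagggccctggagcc
Cxcl10: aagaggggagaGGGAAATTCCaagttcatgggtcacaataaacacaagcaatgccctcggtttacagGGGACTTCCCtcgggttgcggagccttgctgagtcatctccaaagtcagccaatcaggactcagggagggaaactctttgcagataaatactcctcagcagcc
In Cxcl1, Cxcl2 and Cxcl3 a match on the gene's strand and one on the opposite strand overlapped and gave the same 11 letters, at -71 to -61, -97 to -87 and -73 to -63 from the start. Cxcl10 held 2 separate matches, at -159 to -150 and at -103 to -94. Within 250 bases before to 50 after the start, 7 of the 24 chemokine promoters held a match (29.2%; the 4 printed and those of Ccl20, Ccl27a and Ccl9), against 1480 of 32851 promoters in the table (4.51%). TATAAA on either strand was in 8 of the 24 (33.3%) against 13.6% of all, and the interferon element GAAANNGAA on either strand in 6 of the 24 (25%) against 8.56%. Neighboring genes share ancestry, so these promoters are not independent of each other, and a match is a description of letters, not a bound site.

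Ligands of CCR2, which draw monocytes from the blood, were mainly macrophage genes. Ccl2, the main monocyte attractant, was highest in macrophages in each library, at 596, 916 and 412 CPM. Neutrophils came second in the control (203 CPM), dendritic cells in the P10 mutant (132 CPM) and glia in the 3-month mutant (281 CPM). At a limit of 5% mitochondrial UMIs glia ranked first for Ccl2 in the 3-month mutant. Ccl12 was nearly restricted to macrophages, at 548, 827 and 871 CPM in macrophages, with the second class at least 11.4-fold lower in every library. Ccl7 stood at 231, 341 and 345 CPM in macrophages. Ccl8, their neighbor on chromosome 11, showed another order. At P10 it was highest in fibroblasts (54.9 and 56.8 CPM, against 32 and 52.6 CPM in macrophages). At 3 months it was highest in macrophages, at 842 CPM, while fibroblasts were at 60.7 CPM. When each library was clustered alone, macrophages ranked first for Ccl8 in both P10 libraries. In the P10 mutant the fibroblast and macrophage levels of Ccl8 did not differ beyond counting error (ratio 1.08, 0.852 to 1.38). The eotaxins, which act on eosinophils through CCR3, were split between classes, Ccl11 being highest in fibroblasts (29.0, 50 and 121 CPM) and Ccl24 in macrophages (36, 20.2 and 9.69 CPM).

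Ccl4 and Ccl3, which attract monocytes and lymphocytes, were the most abundant CC chemokines. Ccl4 was at 2157, 4035 and 3659 CPM in macrophages and at 2229, 1922 and 1555 CPM in dendritic cells, and in the control these classes did not differ beyond counting error (ratio 1.03, 0.981 to 1.09). Ccl3 was highest in neutrophils at P10 (3764 and 2592 CPM) and in macrophages at 3 months (1039 CPM, against 802 CPM in neutrophils). As a mean over cells, neutrophils ranked first for Ccl3 at 3 months as well. Ccl6 and Ccl9, rodent CCR1 ligands, were highest at 3 months in monocytes, at 912 and 376 CPM. At P10 Ccl6 was highest in neutrophils (326 and 374 CPM), and there were too few monocytes there to be ranked (37 and 31 cells, in which Ccl6 stood at 783 and 455 CPM). Ccl9 at P10 was at 155 and 119 CPM in macrophages, and in the P10 mutant granulocyte progenitors (150 CPM) and dendritic cells (142 CPM) were not apart beyond counting error.

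Among chemokines of lymphoid cells, Ccl5 differed between the ages. Ccl5, a product of effector T cells and natural killer cells, was at 232, 78.7 and 3926 CPM in T cells. Of the T cells at least 1 Ccl5 UMI was found in 9.38%, 10.5% and 54.2%, and in 6.85%, 5.34% and 47.8% after thinning. The T class was not made of the same cells at both ages, since 501 of 581 T cells at 3 months lay in cluster 6 and 50 of 64 and 77 of 95 at P10 in cluster 28, led by Il17a and Trdc. Within cluster 28 Ccl5 was at 0, 11 and 8.03 CPM, and in cluster 6 of the 3-month library it was at 4583 CPM. Xcl1, whose receptor Xcr1 marks cross-presenting dendritic cells, was at 201, 155 and 248 CPM in T cells. In cluster 28 Xcl1 was at 207, 147 and 0 CPM, and cluster 6 held all 646 UMIs of the 3-month T cells. At P10 1 cell held 82.8% and 53.5% of the Xcl1 UMIs. Ccl1, a ligand of CCR8, was seen in 4, 7 and 6 T cells only, with 9, 103 and 81 UMIs.

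The interferon-induced ligands of CXCR3, which recruit T cells, did not follow one pattern although their genes lie 18558 bp apart. Cxcl9 had 116, 97 and 4136 UMIs in all kept cells. At 3 months it was at 381 CPM in macrophages, 262 CPM in dendritic cells and 190 CPM in fibroblasts, and in P10 macrophages at 1.12 and 25.8 CPM. Cxcl10 had 3272, 5073 and 4899 UMIs in all and was spread over many classes. It stood at 131, 305 and 188 CPM in macrophages, at 187, 231 and 314 CPM in neutrophils, at 168, 286 and 151 CPM in endothelial cells and at 58.8, 350 and 574 CPM in glia. Single cells weighed on some of these levels: 82.4% of the Cxcl10 UMIs of lymphatic endothelial cells in the control, the highest class there at 415 CPM, came from 1 cell. Without the cell with the most UMIs, glia stood at 26.6, 225 and 477 CPM.

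Homeostatic chemokines were found in stromal, endothelial and other cells. Cxcl12, the CXCR4 ligand that retains progenitors, was at 406, 331 and 299 CPM in fibroblasts and at 198, 202 and 829 CPM in endothelial cells, so that the order of these classes at P10 was turned at 3 months (ratio 2.77, 2.61 to 2.94). In the P10 mutant lymphatic endothelial cells ranked first for Cxcl12 (501 CPM), with 88.9% of the UMIs in 1 cell and 61.8 CPM without it. Ccl21a, a CCR7 ligand of lymphatic vessels, was at 2386 (2236 to 2542), 3512 (3360 to 3669) and 14815 CPM (14482 to 15154) in lymphatic endothelial cells, with the second class at least 32.8-fold lower. Those levels came from 11 of 72, 11 of 70 and 37 of 102 cells, in a class with median depths of 2034, 1771 and 1492 UMIs. This class was not found again in either P10 library when each library was clustered alone. Its 5 own markers summed to 1173, 1019 and 4010 CPM, and their part in the Ccl21a levels was not tested. Ccl19, the other CCR7 ligand, was a gene of mural cells (70.2, 73.7 and 99.5 CPM) and of fibroblasts (47.2, 82.9 and 516 CPM). In the control mural cells were 1.49-fold (1.19 to 1.85) above fibroblasts for Ccl19, in the P10 mutant the classes did not differ beyond counting error, and at 3 months fibroblasts were 5.18-fold (4.32 to 6.27) above mural cells. Cxcl13, the attractant of B cells through CXCR5, was found in different classes at the 2 ages: fibroblasts had 137, 84.0 and 4.81 CPM and macrophages 0, 0 and 204 CPM. Cxcl14, an orphan chemokine of epithelia, was highest in neuronal precursors at P10 (97.1 and 54.0 CPM) and in fibroblasts at 3 months (42.8 CPM). When each library was clustered alone, 29 of 254 and 49 of 114 of these P10 precursors kept the name. Basal epithelial cells then ranked first for Cxcl14 in the control. As a mean over cells they ranked first in both mutant libraries. In the P10 mutant the neuronal precursors and basal epithelial cells (48.7 CPM) did not differ beyond counting error for Cxcl14.

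**Figure D3:**
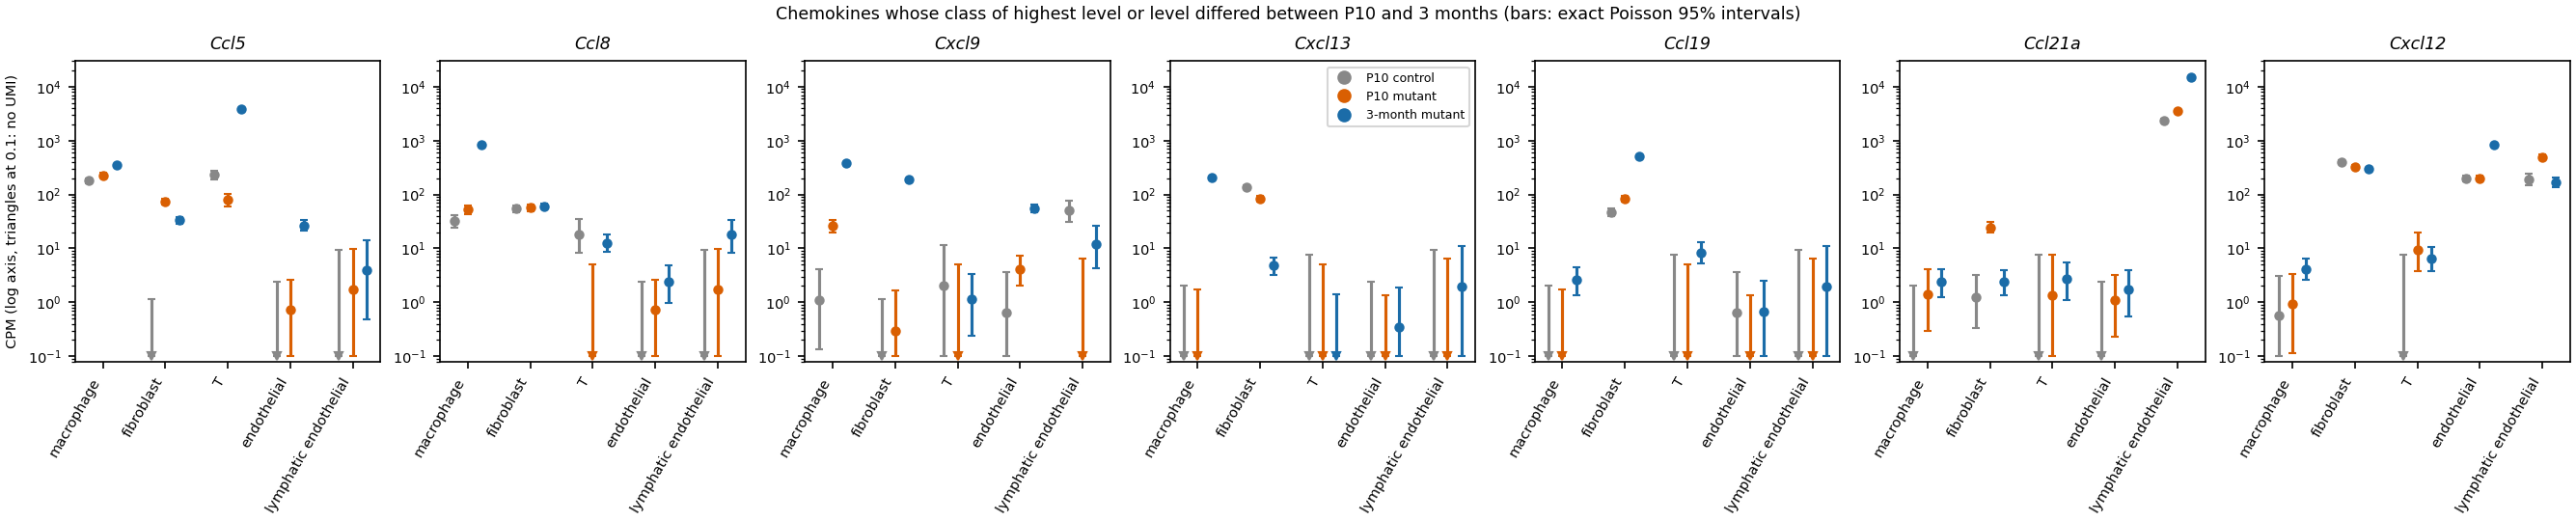
CPM on a log axis of 7 chemokines in 5 classes of the 3 libraries, with exact Poisson 95% intervals; triangles mark no UMI. Cxcl13 stood in fibroblasts at P10 (137 and 84.0 CPM) and in macrophages at 3 months (204 CPM), and Ccl8, Cxcl9, Ccl19 and Ccl5 were higher in the 3-month library in macrophages, fibroblasts or T cells.

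Mucosal chemokines were carried by different epithelia. Cxcl17, which is made by mucosal epithelia, was at 252, 459 and 195 CPM in gland cells, at 177, 189 and 267 CPM in basal epithelial cells and at 809, 711 and 853 CPM in cluster 35, where 98.6%, 95.7% and 100% of cells had a UMI. Ccl28, the CCR10 ligand that draws plasma cells to mucosae, was at 8.12, 16.3 and 33.1 CPM in gland cells and at 35.7, 41.5 and 72.9 CPM in cluster 35. Ccl20, the CCR6 ligand, was highest in basal epithelial cells of the control (68.8 CPM), luminal epithelial cells of the P10 mutant (121 CPM) and gland cells of the 3-month mutant (76.2 CPM). At 3 months Ccl20 came from 28 of 628 gland cells, and 1 cell held 37.4% of the UMIs. As a mean over cells, luminal epithelial cells ranked first there. In the P10 mutant lymphatic endothelial cells had as much within counting error (120 CPM). In cluster 35 Ccl20 was at 575, 834 and 12 CPM. Ccl25, the CCR9 ligand of thymus and gut, was at 229, 152 and 41.2 CPM in luminal epithelial cells, and at 3 months it was at 214 CPM in cluster 17, a cluster of that library led by Cyp2a5. The luminal class lay in cluster 1 in the control (441 of 443 cells) and in cluster 19 at 3 months (108 of 110 cells). In the P10 mutant Ccl25 was at 205 CPM in cluster 1 and 33.6 CPM in cluster 19.

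Neurons made few chemokines. Ccl27a, known from keratinocytes, was highest in immature VSNs, at 103 (93.6 to 114), 106 (91.0 to 122) and 103 CPM (79.0 to 133), and was at 57.1, 49.9 and 37.4 CPM in mature VSNs. At least 1 Ccl27a UMI was found in 61.7%, 58.5% and 38.5% of immature VSNs, or 10.2%, 10.7% and 8.22% after thinning, against 11%, 16.5% and 3.23% of B lineage cells, or 1.12%, 1.87% and 0.0484% after thinning (median depths 12445, 12851 and 5516 against 5500, 9261 and 4301 UMIs). Ccl25 was second highest in mature VSNs at P10 (87.8 and 65.3 CPM) and highest there at 3 months (82.3 CPM). Ccl27a overlaps Il11ra1 and Ccl25 overlaps Elavl1 on the opposite strand. The same holds for Cxcl16 with Zmynd15, Cxcl10 with Art3, Ccl2 with Gm17268, Ccl19 and Ccl21a with 4930578G10Rik, Cxcl17 with 4732471J01Rik, Ccl6 with E230016K23Rik and Xcl1 with Gm20743. Whether counting used strand was not stated in the sources used here, so reads of these partners cannot be told apart from chemokine reads.

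Cxcl16 and Cx3cl1 are made as membrane-bound proteins, and Ccl17 and Ccl22 are products of dendritic cells. Cxcl16, the CXCR6 ligand, was at 493, 582 and 746 CPM in macrophages and second in dendritic cells (194, 393 and 379 CPM). Cx3cl1, or fractalkine, was highest in basal epithelial cells at P10 (80.2 and 103 CPM) and in endothelial cells at 3 months (87.2 CPM), where basal epithelial cells stood at 68.5 CPM. Ccl22, a CCR4 ligand of mature dendritic cells, was at 10.8, 69.1 and 121 CPM in dendritic cells, and Ccl17, which shares the receptor and lies in the same 66447 bp of chromosome 8, was at 8.84, 47.8 and 69.9 CPM. Ccl22 came from 4 of 74, 12 of 101 and 39 of 239 dendritic cells, and Ccl17 from 4, 9 and 17.

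Receptors of these chemokines were found mainly in leukocytes. Neutrophils had the highest levels of Cxcr2 (483, 457 and 939 CPM), Ccr1 (1099, 1132 and 853 CPM) and Cxcr4 (997, 818 and 1363 CPM), and so held both Cxcl2 and its receptor. Macrophages had the highest level of Cx3cr1 (575, 554 and 729 CPM). T cells had the highest levels of Cxcr6 (622, 556 and 574 CPM) and Cxcr3 (77.2, 40.7 and 110 CPM). Dendritic cells held Xcr1 (117, 78.7 and 66.7 CPM), and their Ccr7 was at 14.7, 129 and 248 CPM. Ccr10, the receptor of Ccl27a and Ccl28, was at 123 CPM in the plasma cells of the 3-month library, of which P10 libraries held at most 1 cell. Among atypical receptors, which take up chemokines without signaling, Ackr1 was highest in endothelial cells (31.4, 75.8 and 57.8 CPM) and Ackr2 in lymphatic endothelial cells (25.2, 19.2 and 113 CPM).

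Genotype was compared at P10 in macrophages, neutrophils, fibroblasts and endothelial cells, as the ratio of CPM in the P10 mutant to the P10 control. A gene with at least 20 UMIs in both libraries together was counted as different when the ratio was at least 2 or at most 0.5, and the share of all features past the same limits is given as background. With 1 library per group such a count is a description. Of the listed chemokine receptors with at least 20 UMIs, 0 of 6 were past these limits in macrophages (all features 4.28%), 0 of 4 in neutrophils (7.74%), 1 of 2 in fibroblasts (3.37%) and 1 of 2 in endothelial cells (4.84%).

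In neutrophils of the P10 mutant 2 of 13 chemokines were past 2-fold, none higher and both lower, against 7.74% of all features (5.27% higher and 2.47% lower). Cxcl3 was 0.259-fold (0.222 to 0.303) the control level, 204 against 785 CPM. It stayed below 0.5 in all 10 alternatives, of which the UMI minimums left the ratio unchanged. It was found in 43 of 245 control and 52 of 381 mutant neutrophils, and 22% of the control UMIs came from 1 cell. Ccl2 was 0.447-fold (0.344 to 0.579), 90.7 against 203 CPM, but 1.02-fold at a limit of 5% mitochondrial UMIs. The abundant neighbors were within 2-fold: Cxcl2 at 0.656-fold (0.638 to 0.674), Ccl3 at 0.689-fold and Ccl4 at 1.41-fold. The NF-κB response list (Il1b, Tnf and 8 others) summed to 19740 and 19027 CPM and the immediate early and heat shock list to 15121 and 16531 CPM in these cells. Gland markers summed to 1724 and 350 CPM, macrophage markers to 475 and 273 CPM. Their part in the differences was not tested.

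In macrophages 5 of 19 chemokines were past 2-fold, 3 higher and 2 lower, against 4.28% of all features (1.89% higher and 2.39% lower). The median log2 ratio was 0.34 over the 19 and -0.02 over all features. Cxcl10 was 2.33-fold higher (2.00 to 2.71), 305 against 131 CPM, and was no longer past 2-fold without likely doublets or as a mean over cells. Cxcl9 was 23-fold higher (6.06 to 194) on 55 UMIs in the mutant and 2 in the control, but 63.6% of the former came from 1 cell and the ratio was 0.825 at a limit of 5% mitochondrial UMIs. Cxcl14 was 4.01-fold higher on 24 and 5 UMIs, and 95.8% of the mutant's came from 1 cell, without which the ratio was 0.280. Cxcl5 (0.266-fold, 7 and 22 UMIs) and Cxcl3 (0.418-fold, 7 and 14 UMIs) were lower on few counts. Ccl3 at 1.91-fold (1.81 to 2.02) and Ccl4 at 1.87-fold (1.80 to 1.94) lay just under the limit, and Ccl2, Ccl7, Ccl12 and Ccl8 were between 1.48-fold and 1.64-fold higher. Cluster 5, the one macrophage cluster with over 50 cells in every library, had Cxcl10 5.61-fold (4.05 to 7.96), Ccl7 10.1-fold (5.62 to 19.9) and Ccl12 3.58-fold (2.44 to 5.41) higher in the mutant, and Ccl5 0.343-fold the control. The NF-κB response list summed to 4234 and 5182 CPM, the interferon response list to 2177 and 2225 CPM and the immediate early and heat shock list to 11702 and 14593 CPM. Gland markers summed to 606 and 177 CPM and neutrophil markers to 188 and 144 CPM, with UMIs of 7 of 8 neutrophil genes and Ly6g at 0 in both. Their part was not tested.

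In fibroblasts 8 of 22 chemokines were past 2-fold, 8 higher and 0 lower, against 3.37% of all features (1.61% higher and 1.76% lower), with a median log2 ratio of 0.51 against -0.01 over all features. Ccl2 was 2.36-fold higher (1.84 to 3.05), 65.5 against 27.8 CPM, and Ccl7 3.33-fold higher (1.39 to 9.14) on 24 and 7 UMIs. Cxcl17 was 2.08-fold higher on 15 and 7 UMIs, an interval (0.798 to 6.03) that includes 1. For the other 5 a single cell held most of the mutant's UMIs. In the mutant 1 cell held 89.4% of the 245 Ccl5 UMIs (at least 79.2-fold higher than the floor of 3 counts in the control library, which had none, with a lower 95% limit of 63.9-fold), and 1 cell held 89.2% of the Ccl4, 95.1% of the Ccl21a, 84.8% of the Ccl20 and 66.7% of the Ccl3 UMIs. Without the cell with the most UMIs in each library Ccl5 (8.53-fold), Ccl4 (5.50-fold) and Ccl2 (2.58-fold) stayed past 2-fold. Ccl21a was then 1.29-fold and Ccl3 1.68-fold. In all 4 genes were then past 2-fold, all higher, and 3 of them were among the 8. Without likely doublets 4 were past 2-fold, 3 higher and 1 lower, and 3 of them were among the 8. These 3 were Ccl2, Ccl7 and Ccl21a, so neither Ccl5 nor Ccl4 was counted there. Neutrophil markers summed to 92.5 and 576 CPM in these fibroblasts, with UMIs of 6 and 7 of 8 genes and Ly6g at 0 in both. Macrophage markers summed to 20.7 and 118 CPM, with UMIs of 5 and 7 of 7 genes. Their part was not tested.

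In endothelial cells 5 of 12 chemokines were past 2-fold, 5 higher and 0 lower, against 4.84% of all features (2.83% higher and 2.01% lower). The median log2 ratio was 0.66 against -0.02 over all features. Cxcl1 was 2.13-fold higher (1.91 to 2.38), 565 against 265 CPM, and was found in 96 of 149 mutant and 42 of 91 control cells. It was past 2-fold in all 10 alternatives. Of these the shared cluster held the same cells as the class, and the UMI minimums left the ratio unchanged. Cxcl2 was 2.27-fold higher (1.58 to 3.33), 55.2 against 24.4 CPM, but 1 cell held 52.0% of the mutant's UMIs. Ccl4 (44.2-fold, 12 to 368, on 154 and 2 UMIs) and Ccl3 (10.3-fold, 3.35 to 51.7, on 54 and 3 UMIs) were no longer past 2-fold without likely doublets. Ccl11 was at least 11.9-fold higher than the floor of 3 counts (lower 95% limit 9.36-fold), with 95.2% of its 62 UMIs in 1 cell. Cxcl12 (1.02-fold, 0.885 to 1.18) and Ccl2 (1.02-fold, 0.809 to 1.3) had intervals around 1. The heat shock genes Hspa1a (155 and 1088 CPM) and Hspa1b (215 and 947 CPM) were also higher in endothelial cells of the P10 mutant, and the NF-κB response list summed to 1900 and 2787 CPM. Macrophage markers summed to 14.7 and 96.7 CPM, with UMIs of 5 and 7 of 7 genes, neutrophil markers to 48.1 and 87.2 CPM (Ly6g at 0 in both) and luminal epithelial markers to 149 and 353 CPM. Gland markers (379 and 88.6 CPM) and mural markers (1285 and 572 CPM) were lower in the mutant. Their part was not tested.

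**Figure D4:**
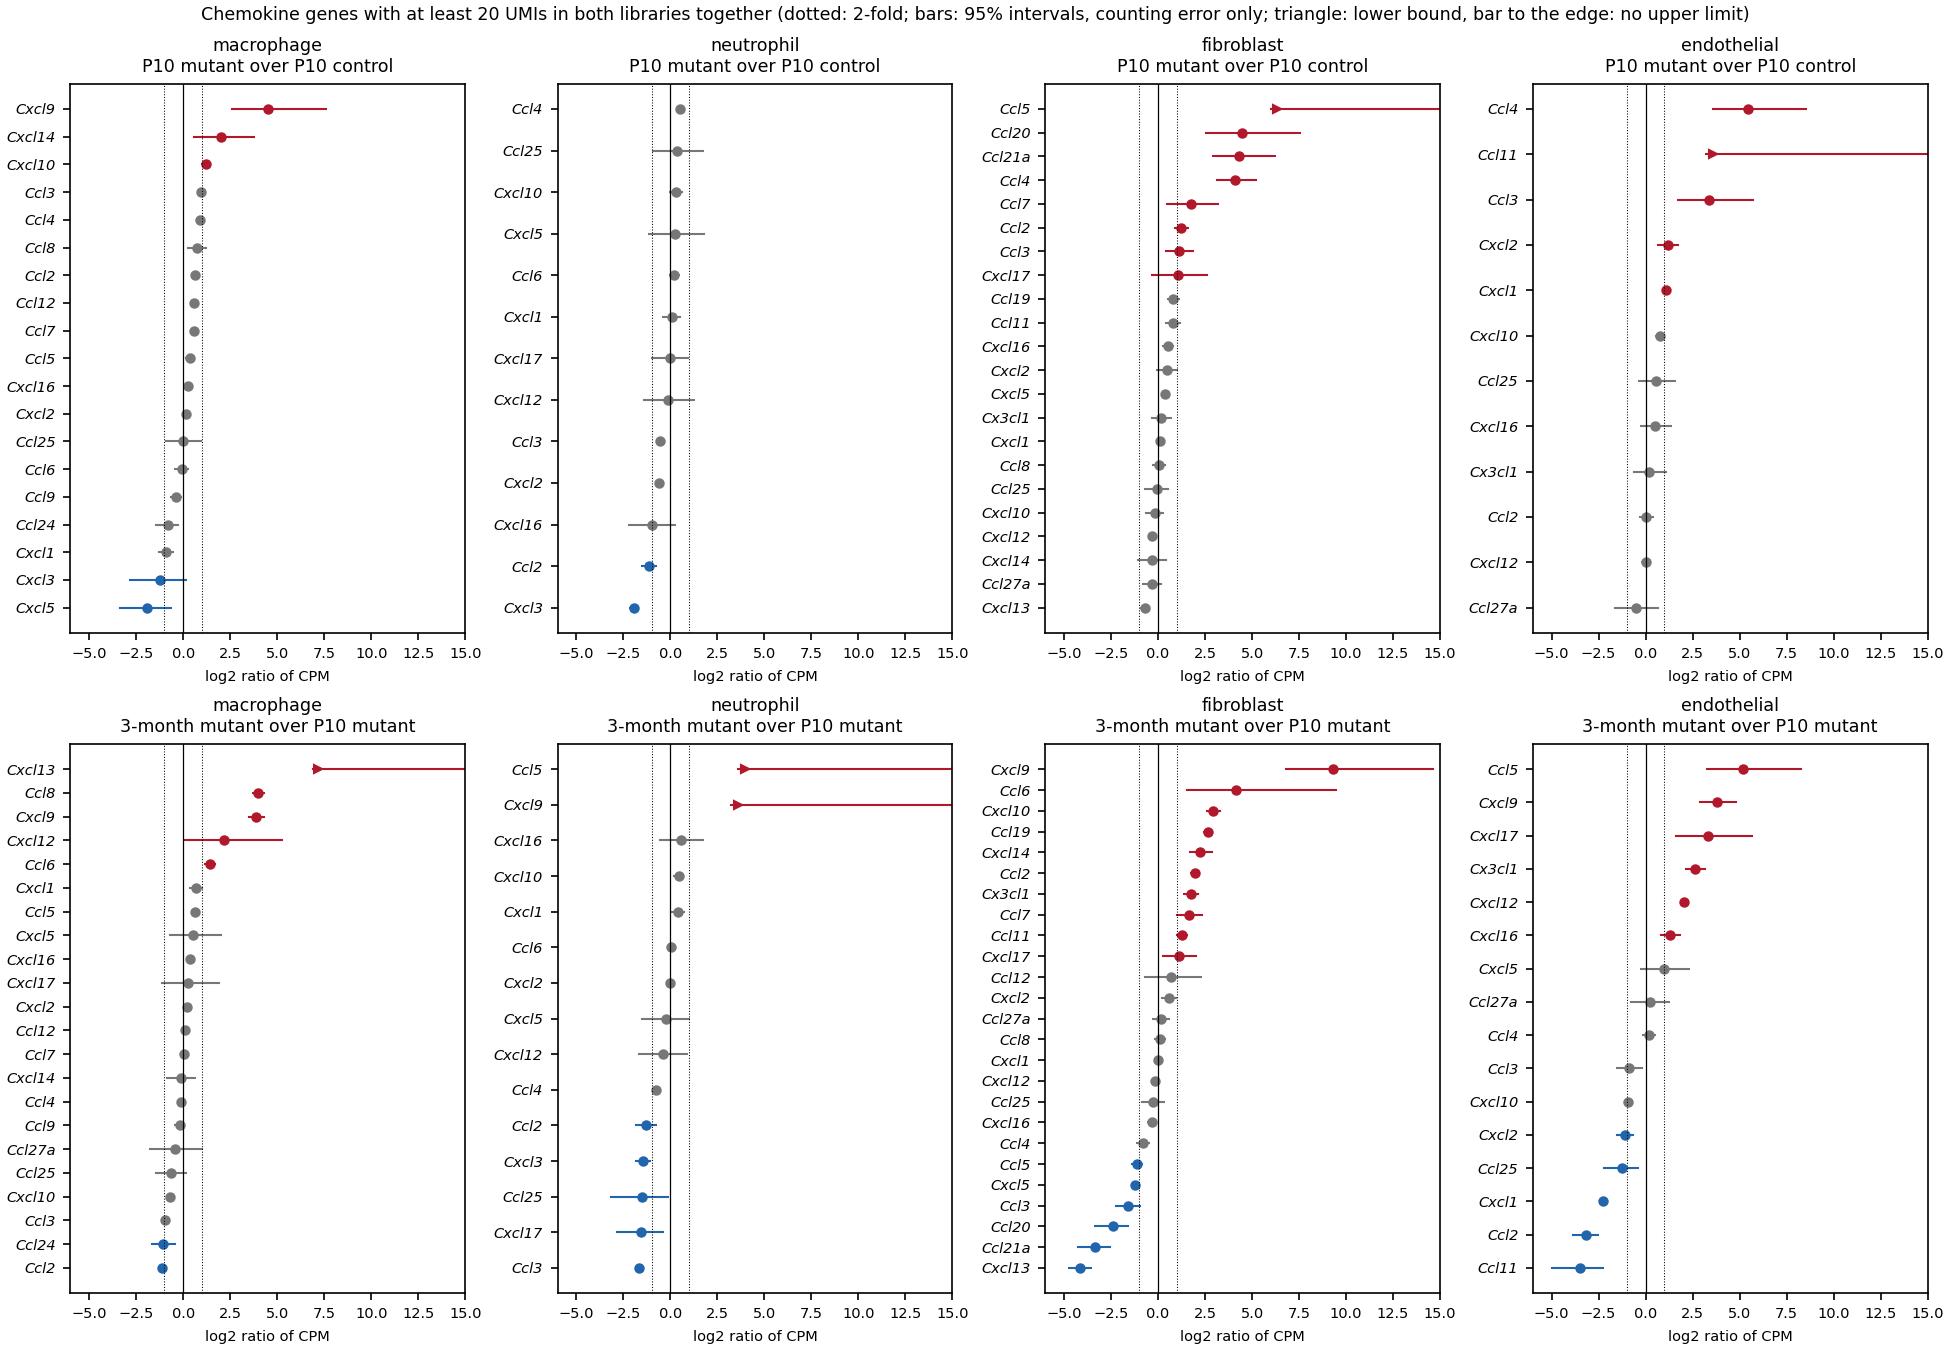
Log2 ratios of CPM with 95% intervals for each chemokine with at least 20 UMIs in both libraries together, in 4 classes, for the P10 mutant over the P10 control (upper row) and the 3-month mutant over the P10 mutant (lower row). Red and blue points are past 2-fold (dotted lines); the counts were 5, 2, 8 and 5 genes in the upper row and 7, 7, 16 and 11 in the lower row, and a triangle marks a lower bound.

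Age was compared in the same classes between the mutants, with the 3-month library over the P10 library. Different clusters made up a class at each age: neutrophils lay in cluster 3 at P10 (375 of 381 cells) and in cluster 15 at 3 months (351 of 466 cells), macrophages in clusters 32 and 5 and then in clusters 5 and 9, and fibroblasts in clusters 12 and 31 and then in clusters 10 and 40. Endothelial cells were a single cluster at both ages. Of the listed chemokine receptors, 4 of 9 were past 2-fold in macrophages (all features 11.6%), 2 of 4 in neutrophils (18.6%), 3 of 6 in fibroblasts (15.9%) and 0 of 2 in endothelial cells (14.9%). Gland markers summed to 177 and 4499 CPM in macrophages, 350 and 8756 CPM in neutrophils, 135 and 2469 CPM in fibroblasts and 88.6 and 2256 CPM in endothelial cells of the 2 mutant libraries, and their part was not tested.

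In macrophages 7 of 22 chemokines were past 2-fold, 5 higher and 2 lower, against 11.6% of all features (5.45% higher and 6.12% lower). Ccl8 was 16.0-fold higher (13.3 to 19.5), 842 against 52.6 CPM, and Cxcl9 14.8-fold higher (11.3 to 19.7), 381 against 25.8 CPM. Both were past 2-fold in all 10 alternatives, of which the UMI minimums left the ratios unchanged. Cxcl13 was at 204 CPM in 44 of 983 cells at 3 months, against no UMI in 256 cells at P10, which makes it at least 145-fold higher than the floor of 3 counts (the lower limit of the 95% interval was 118-fold). Ccl6 was 2.68-fold higher (2.25 to 3.21), 185 against 69.0 CPM, and Cxcl12 was 4.42-fold higher on 21 and 2 UMIs. Ccl2 was 0.450-fold (0.423 to 0.479), 412 against 916 CPM, and Ccl24 was 0.480-fold (0.312 to 0.741). Within cluster 5 these turned, with Ccl2 at 1.10-fold (0.982 to 1.23) and Ccl24 at 4.63-fold on 44 and 2 UMIs. In the same cluster Ccl8 stood at 696 CPM against none, and Ccl12 was 5.13-fold higher (4.39 to 6.03), although over all macrophages Ccl12 was 1.05-fold (0.995 to 1.11). Ccl3 at 0.512-fold (0.491 to 0.533) lay just inside the limit. Interferon response genes summed to 2225 and 1459 CPM in macrophages of the P10 and 3-month mutants, and their part was not tested.

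In neutrophils 7 of 15 chemokines were past 2-fold, 2 higher and 5 lower, against 18.6% of all features (7.23% higher and 11.4% lower). Ccl3 was 0.309-fold (0.287 to 0.333), 802 against 2592 CPM, Cxcl3 was 0.364-fold (0.282 to 0.466) and Ccl2 0.408-fold (0.281 to 0.586). Within cluster 3 these ratios were 0.644, 0.693 and 1.05, none of them past 2-fold. Cxcl2 was level at 1.00-fold (0.976 to 1.03). Cxcl17 and Ccl25 were lower on 9 and 6 UMIs at 3 months, and Cxcl9 and Ccl5 were at least 12.1-fold and 15.7-fold higher than the floor of 3 counts (lower 95% limits 9.39-fold and 12.3-fold) with 91.9% and 68.8% of their UMIs in 1 cell each. All 8 tested genes of the interferon response list were past 2-fold higher at 3 months (Isg15 at 3336 against 1089 CPM), and their part was not tested. Cxcl10 was 1.36-fold (1.16 to 1.60), 314 against 231 CPM.

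Fibroblasts had the most chemokines past 2-fold, 16 of 25, with 10 higher and 6 lower, against 15.9% of all features (6.67% higher and 9.26% lower). Ccl19 was 6.22-fold higher (5.50 to 7.06), 516 against 82.9 CPM, and was found in 61.7% against 28.9% of cells, or 23.7% against 5.81% after thinning. Cxcl10 was 7.70-fold higher (6.14 to 9.79), 184 against 23.9 CPM, and Cxcl9 was at 190 CPM against 1 UMI at P10 (ratio 636, 114 to 25159). Ccl2 was 3.94-fold higher (3.42 to 4.56), 258 against 65.5 CPM, and Ccl11 2.42-fold higher (2.04 to 2.87), 121 against 50 CPM. Cxcl14 (4.77-fold), Cx3cl1 (3.36-fold), Ccl7 (3.10-fold), Cxcl17 (2.18-fold) and Ccl6 (17.7-fold, on 33 and 1 UMIs) were also higher. Cxcl13 was 17.5-fold lower (12 to 26.4), 4.81 against 84.0 CPM, and Cxcl5 2.37-fold lower (2.21 to 2.54), 220 against 522 CPM. The remaining lower genes, Ccl5, Ccl3, Ccl20 and Ccl21a, had the P10 levels set by single cells given above, and without that cell Ccl5 was 3.27-fold and Ccl21a 1.87-fold higher. Cxcl12 (0.905-fold), Ccl8 (1.07-fold) and Cxcl1 (0.992-fold) were within 2-fold. By cluster, Ccl19 was at 702 CPM in cluster 10 and 66.7 CPM in cluster 40 at 3 months, against 101 and 39.2 CPM in clusters 12 and 31 of the P10 mutant. The P10 Cxcl13 UMIs lay in cluster 12, with 270 of 281. The NF-κB response list summed to 763 and 1236 CPM and the interferon response list to 440 and 681 CPM. Plasma cell markers summed to 73.6 and 1222 CPM (UMIs of 3 and 5 of 5 genes) and T cell markers to 2.39 and 51.1 CPM (3 and 8 of 8 genes). Their part was not tested.

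In endothelial cells 11 of 16 chemokines were past 2-fold, 6 higher and 5 lower, against 14.9% of all features (6.47% higher and 8.46% lower). Cxcl12 was 4.11-fold higher (3.74 to 4.51), 829 against 202 CPM, and was found in 59.3% against 24.8% of cells, or 34.6% against 11.3% after thinning. Cx3cl1 was 6.24-fold higher (4.43 to 9.03), 87.2 against 14 CPM, and Cxcl16 2.49-fold higher (1.79 to 3.52), 45.8 against 18.4 CPM. Cxcl9 was 13.8-fold higher (7.50 to 28.2), 55.8 against 4.05 CPM, although 58.9% of its 3-month UMIs came from 1 cell. Ccl5 (36.3-fold, on 78 and 2 UMIs) and Cxcl17 (9.92-fold, on 32 and 3 UMIs) were no longer counted without likely doublets. Cxcl1 was 4.86-fold lower (4.32 to 5.48), 116 against 565 CPM, and so stood below the P10 control as well. Ccl2 was 8.96-fold lower (5.85 to 14.3), 8.21 against 73.5 CPM, Cxcl2 was 0.465-fold, Ccl25 0.413-fold and Ccl11 0.0900-fold, the last with its P10 level from 1 cell. The P10 and 3-month lists of differences share the P10 mutant library, so Cxcl1 higher at P10 in the mutant and lower at 3 months are not independent. Hspa1a was at 1088 and 407 CPM and plasma cell markers at 8.83 and 2212 CPM in the 2 mutant libraries, and their part was not tested.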

How the data were processed

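Single cells of the whole VNO were measured in 3 libraries, 1 per group, and groups were taken from the labels. The authors deposited filtered matrices of whole-number UMI counts per gene and barcode, made on mm10 with Cell Ranger, whose version per the file headers was 4.0.0 at P10 and 6.0.1 at 3 months. Whether intronic reads or strand were used in counting was not given in the sources used here.

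Barcodes with 200 to 9000 genes and at most 10% mitochondrial UMIs were kept. They were clustered jointly (scanpy 1.11.5, 2000 variable genes, 30 principal components, 20 neighbors, Leiden resolution 1.5 with leidenalg 0.10.2), mixed clusters were divided again at resolution 1, and classes were named from marker lists, the remainder staying unnamed. Doublets were kept in the main values because the caller marked 2, 0 and 1 barcodes, so an alternative left out 528, 622 and 666 barcodes by an assumed rate. UMIs were pooled by class and library. The floor for a count of 0 was 3 counts in the library. For shares of cells, each cell was thinned to 1000 UMIs and shallower cells were left out. Intervals used scipy 1.17.1. No test was made, since each group was 1 library. Functions were tested on simulated data.

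Members and lists were chosen with earlier results of these data known. Cluster scoring, division of mixed clusters and the alternatives without the richest cell or within 1 shared cluster were set after seeing the data. Genes with at least 50 UMIs were named, and in comparisons those past 2-fold with at least 20 UMIs. The 9 genes without a promoter entry were left out of the motif shares.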

Additional observations from a re-analysis of the deposited data

Results flagged for a closer look

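Several chemokines were past 2-fold in opposite directions in different classes under the same comparison. These differences between classes were not tested. At P10, Ccl2 in the mutant was 0.447-fold the control in neutrophils and 2.36-fold in fibroblasts, but 1.02-fold in neutrophils at 5% mitochondrial UMIs. Between the ages, Ccl2 was 0.450-fold in macrophages, 0.408-fold in neutrophils and 0.112-fold in endothelial cells, and 3.94-fold in fibroblasts. Within the shared cluster it was 1.10-fold in macrophages and 1.05-fold in neutrophils. Cxcl13 was at least 145-fold higher than the floor of 3 counts in macrophages (lower 95% limit 118-fold) and 0.0572-fold in fibroblasts. Ccl11 was 2.42-fold in fibroblasts and 0.0900-fold in endothelial cells, where 95.2% of the P10 mutant UMIs came from 1 cell. Ccl5 was at least 15.7-fold higher than the floor of 3 counts in neutrophils (lower 95% limit 12.3-fold) and 36.3-fold higher in endothelial cells. The former was no longer counted without the cell with most UMIs or in the shared cluster, and the latter without likely doublets. In fibroblasts Ccl5 was 0.457-fold, and 89.4% of the P10 mutant UMIs there came from 1 cell. Cxcl17 was 0.341-fold in neutrophils, 2.18-fold in fibroblasts and 9.92-fold in endothelial cells, but 1.39-fold in neutrophils and 3.19-fold in endothelial cells without likely doublets, and the neutrophil value rests on 9 and 26 UMIs.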

How the results depend on the processing

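Beside 11 alternatives listed beforehand, 2 were chosen after seeing the data (without the cell with most UMIs of the gene in each library, and only the cluster shared by the libraries). No paired analysis was possible because each group has 1 library, and leaving out a replicate was not possible for the same reason. Of 88 recomputed counts 73 stayed within 1.5 times the main count and 15 moved beyond it. A similar count could hold other genes. In P10 macrophages 6 genes were past 2-fold at 5% mitochondrial UMIs, and 2 of them were among the main 5. For age in neutrophils, 0 of the 3 genes in the shared cluster were among the main 7 in the same direction. For age, the count in endothelial cells (11) was 17 with classes from each library alone and 17 with a minimum of 1 UMI in each library, the count in macrophages (7) was 12 as a mean over cells, and the count in neutrophils (7) was 4 at 5% mitochondrial UMIs, 3 with a minimum of 50 UMIs, 4 without the cell with most UMIs and 3 in the shared cluster. At P10 the count in endothelial cells (5) was 2 without doublets and 3 without the cell with most UMIs, in fibroblasts (8) it was 4 without doublets, 5 as a mean over cells, 5 with a minimum of 50 UMIs and 4 without the cell with most UMIs, in macrophages (5) it was 2 with a minimum of 50 UMIs, and in neutrophils (2) it was 1 at 5% mitochondrial UMIs. Ratios turned direction as follows. At 5% mitochondrial UMIs they were 1.02 for Ccl2 (P10) and 0.658 for Cxcl9 (age) in neutrophils, 2.31 for Ccl24 (age), 1.37 for Cxcl3 (P10) and 0.825 for Cxcl9 (P10) in macrophages, and 4.48 for Ccl5 in fibroblasts (age). Without doublets they were 0.836 and 0.863 for Ccl3 at P10 in endothelial cells and fibroblasts, 16.7 for Ccl5 in fibroblasts and 1.39 for Cxcl17 in neutrophils by age. As a mean over cells they were 1.85 for Ccl5 (age) and 0.653 for Cxcl17 (P10) in fibroblasts, and with classes from each library alone 0.474 for Cxcl17 in fibroblasts (P10) and 0.575 for Cxcl12 in macrophages (age). Without the cell with most UMIs they were 0.594 for Ccl11 in endothelial cells and 0.280 for Cxcl14 in macrophages at P10, and by age 1.87 for Ccl21a and 3.27 for Ccl5 in fibroblasts and 0.986 for Cxcl9 in neutrophils. In the shared cluster they were 1.10 for Ccl2 and 4.63 for Ccl24 (both age), 0.691 for Cxcl14 (P10) and 1.04 for Cxcl3 (P10) in macrophages, and 1.05 for Ccl2 in neutrophils (age). The cause was not tested. The class with the highest level was the same in 77 of 99 gene and library pairs at 5% mitochondrial UMIs, 83 with classes from each library alone, 83 as a mean over cells and at least 97 under the other alternatives. Classes with fewer than 50 cells under an alternative left the ranking there, and the 5% limit kept 1576, 1275 and 4541 cells. How many of the changes came from classes that left was not counted. Genes under 20 UMIs in both libraries together were beyond the depth of this comparison.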

Other observations

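Chemokines and receptors with other symbols add to the picture. Pf4, the platelet factor that belongs to the CXC family by structure, was highest in macrophages, at 972, 598 and 612 CPM. Ccrl2, an atypical receptor that binds chemerin, was highest in neutrophils, at 3340, 3251 and 1984 CPM. Ccr2, the receptor of Ccl2, was highest among ranked classes in dendritic cells at P10 (224 and 321 CPM) and in monocytes at 3 months (735 CPM). Monocytes were too few to be ranked at P10 (37 and 31 cells). In the control T cells (219 CPM) and dendritic cells did not differ beyond counting error for Ccr2. Ackr3, which takes up Cxcl12, was highest in luminal epithelial cells of the control (106 CPM), basal epithelial cells of the P10 mutant (89.0 CPM) and mature VSNs of the 3-month mutant (47.0 CPM). At 3 months lymphatic endothelial cells (45.5 CPM) and mature VSNs did not differ beyond counting error for Ackr3, and the unnamed cluster 17 was higher at 135 CPM.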
